A study of Mus musculus with 56 samples.

Results

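Total RNA from the gastrocnemius, a calf muscle made mostly of fast fibres, was compared between 7 male and 7 female control mice. These 14 libraries were chosen from the labels alone (genotype control, RNA type total RNA, both sexes) out of 56 in the series, and genes on the X and Y chromosomes were left out of what is described. All mice, controls included, were 20 to 22 weeks old and, per the series' design text, carried a GFP-tagged L10A ribosomal protein switched on by Cre recombinase under the Mlc1f promoter, which is active in skeletal muscle fibres. The control label says nothing further on whether a control carried a floxed allele, and strain, hormone status and oestrous stage are not given in the sources used here. The mice labelled HuR Knockout, 7 of each sex, also carried a floxed Elavl1, the gene of HuR, a protein that binds RNA. They serve here only as other mice in which the same sex comparison was made. Ribosomal RNA libraries, prepared from the tagged ribosomes and so mainly from fibres, came from control mice with the same numbers as the total RNA libraries.

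Skeletal muscle of the sexes differs in size, fibre make-up and fuel use. Testosterone acts in fibres through the androgen receptor, a ligand-bound transcription factor, and polyamine synthesis genes are among its known targets in muscle. Growth hormone is released in sex-specific patterns and signals through Jak2 and Stat5 to feedback inhibitors such as Cish. Oestrogen and glucocorticoid receptors are further hormone-bound factors that act in muscle.

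The female libraries held 2819185 to 5163820 counts in genes (median 3383005) and the male libraries 2427655 to 5144575 (median 4497910). Levels are given in CPM, edgeR's measure of a gene's counts relative to the library's TMM-scaled total. All 14 libraries matched their labelled sex: Xist was at 288 to 398 CPM in females and at 0.632 to 8.08 CPM in males, and Ddx3y was at 1.28 to 16.4 and 338 to 400 CPM. Fibre genes were abundant in every library, with Acta1 at 5757 to 9480 CPM and Ckm at 3825 to 6405 CPM. Reads outside genes made up 13 to 19.3% of reads in female libraries and 12.4 to 23.4% in male libraries, and the male libraries fell apart on this measure: male controls 25, 26 and 27 lay at 19.6 to 23.4%, while male controls 20 to 23 lay below 19%. The labels give no batch or date for the libraries, so results were also computed with male controls 20 to 23 and without female control 14 (19.3%), and with male controls 25 to 27 as the only males. Kidney transcripts were present in a few libraries: Kap, a proximal tubule gene, was at 37.5 and 51.7 CPM in female controls 17 and 19 and at 66.9 CPM in male control 20, against 0.963 to 9.01 CPM in the other 11. Because no library came from sorted cells, fewer cells of a type and less RNA per cell cannot be told apart.

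Of 12226 autosomal genes tested, 1072 differed between male and female controls at an adjusted p under 0.05 (edgeR quasi-likelihood test, Benjamini-Hochberg over all 12860 genes tested), which is 8.77%. Levels were higher in males for 591 genes (4.83%) and lower for 481 (3.93%). Most differences were modest, with a median of 1.47-fold among higher genes and 1.39-fold among lower genes, and 128 higher and 56 lower genes differed by more than 2-fold. For 392 autosomal genes (3.21%) the 7 males lay wholly above or wholly below the 7 females, 196 in each direction (1.6% each). The median log2 fold change over all autosomal genes tested was 0.01. With male controls 20 to 23, 1066 autosomal genes were called, and with male controls 25 to 27 as the only males, 1570. Of the 591 higher calls, 394 were also called with male controls 20 to 23, 317 with male controls 25 to 27 and 165 with both. Of the 481 lower calls, the counts were 251, 281 and 130. The calls with male controls 20 to 23 were 64.5% higher in males, against 55.1% with all 7.

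**Figure D1:**
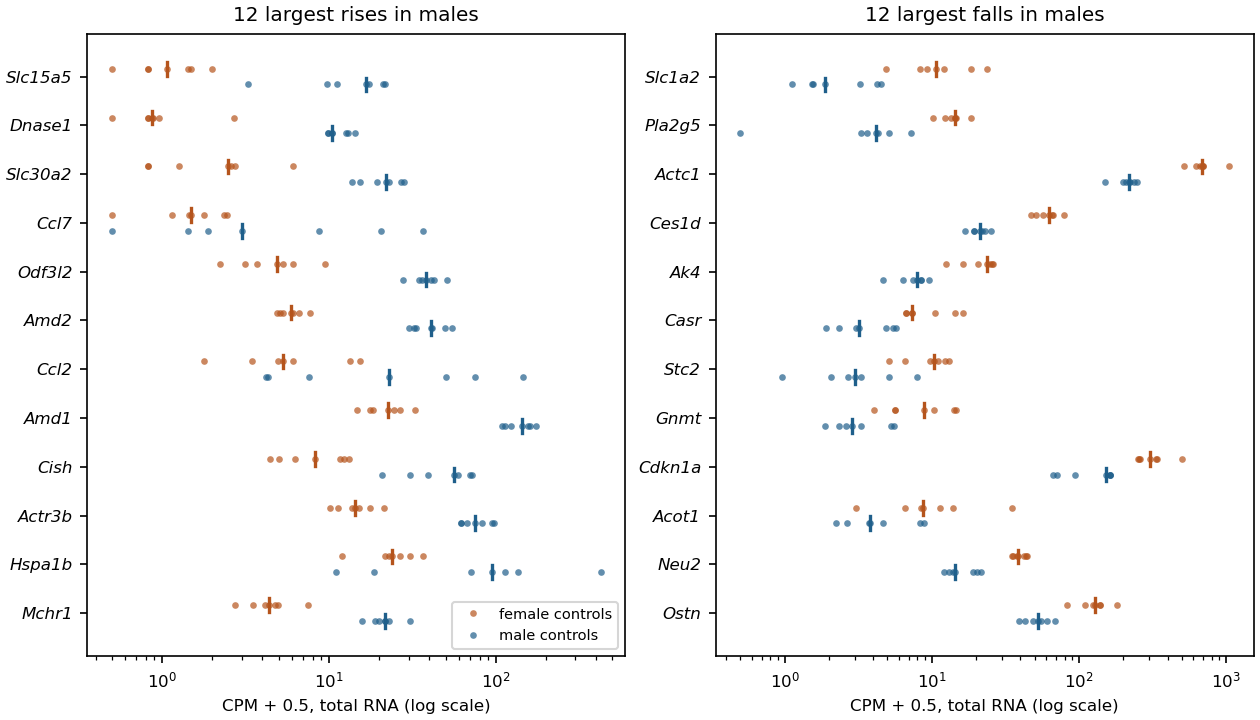
Level in CPM plus 0.5 (log scale) of the 12 autosomal genes with the largest rise (left) and the 12 with the largest fall (right) in male controls, 1 point per library (7 females, 7 males) and a vertical line at each median. Points of the sexes do not overlap for 9 of the 12 rises, and overlap for Ccl7, Ccl2 and Hspa1b. Among the falls they overlap for Stc2, Gnmt and Acot1.

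Polyamine genes were among the largest rises in males. Polyamines are small positively charged molecules needed for growth, and androgens are known to raise their synthesis in several tissues. Of 10 autosomal members of the polyamine list that were tested, 6 were higher in males and none was lower. The median log2 fold change was 0.45. Calls made up 60% of the list, against 8.77% of all autosomal genes tested. This list and those below were chosen with earlier results of these data known. Amd1 encodes S-adenosylmethionine decarboxylase, which supplies the aminopropyl groups for spermidine and spermine. Amd1 was at 14.2 to 32.4 CPM in females (median 22.1) and at 109 to 173 CPM in males (median 142). The groups lay far apart, and the log2 fold change was 2.66 (SE 0.19; adjusted p = 1.70e-11). Its near-identical copy Amd2 was at 4.39 to 7.18 CPM in females (median 5.45) and 29.5 to 54.4 CPM in males (median 40.5), again with no overlap (log2 fold change 2.85, SE 0.26, adjusted p = 6.66e-09). Reads of these copies can be split between them by the counting, so their separate levels are uncertain.

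Odc1, ornithine decarboxylase, makes putrescine and is the entry enzyme of the pathway. It was at 5.98 to 12 CPM in females (median 9.62) and 18.9 to 34.2 CPM in males (median 26.9), so that every male was above every female (log2 fold change 1.59, SE 0.20, adjusted p = 1.66e-06). Smox, spermine oxidase, turns spermine back into spermidine. It was at 116 to 158 CPM in females (median 123) and 287 to 464 CPM in males (median 394), with the same separation (log2 fold change 1.59, SE 0.21, adjusted p = 4.21e-06). Regulators of ornithine decarboxylase differed less. Azin1, the antizyme inhibitor that protects the enzyme, was higher in males with a log2 fold change of 0.57 (adjusted p = 0.0226), and Oaz2, an antizyme, with 0.34 (adjusted p = 0.039). Their groups overlapped. With male controls 20 to 23 Oaz2 was at 0.24 (adjusted p = 0.229), and with male controls 25 to 27 as the only males Azin1 was at 0.29 (adjusted p = 0.369). Oaz2 lost its call in 6 of 14 fits with 1 library left out (highest adjusted p = 0.0925). Spermidine synthase Srm (log2 fold change 0.20, adjusted p = 0.564) and the antizyme Oaz1 (0.05, adjusted p = 0.808) did not pass the test.

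Androgen-responsive muscle genes, polyamine genes included, went both ways. Of 14 tested genes in a list known from androgen receptor studies, 8 were higher in males and 2 were lower. That is 71.4% of the list, against 8.77% of all autosomal genes tested. The median log2 fold change was 0.53. With male controls 20 to 23, 6 were higher and 1 was lower, at a list median of 0.19. The list shares Amd1, Amd2, Odc1 and Smox with the polyamine list, and was written with earlier results of these mice known, so its direction is no independent evidence. Slc30a2 encodes a transporter that moves zinc from the cytosol into vesicles. It was at 0.321 to 5.61 CPM in females (median 1.99) and 13.2 to 27.5 CPM in males (median 21.5), with no overlap (log2 fold change 3.48, SE 0.32, adjusted p = 4.49e-09). Mylk4, a myosin light chain kinase, was at 569 to 795 CPM in females (median 631) and 908 to 1326 CPM in males (median 966). All males were above all females, at a log2 fold change of 0.70 (SE 0.13, adjusted p = 0.000446). Igfbp5, which binds insulin-like growth factors, was higher in males (log2 fold change 0.88, adjusted p = 0.0145), but this rested on male controls 25 to 27, at 920 to 1349 CPM. Male controls 20 to 23, at 382 to 419 CPM, lay within the female range of 249 to 567 CPM, and gave 0.14 (adjusted p = 0.689). Without male control 26 its adjusted p was 0.0537. Myostatin (Mstn), a brake on muscle growth, was at 112 to 165 CPM in females and 131 to 182 CPM in males (log2 fold change 0.19, adjusted p = 0.349).

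Several of the largest rises were in genes outside these lists. Slc15a5, a member of a peptide transporter family, was at 0 to 1.5 CPM in females (median 0.573) and 2.76 to 21.1 CPM in males (median 16.1). It was close to undetected in females and above that range in each male (log2 fold change 4.31, SE 0.57, adjusted p = 4.49e-06). Dnase1, a secreted DNA-cutting enzyme, was at 0 to 2.19 CPM in females (median 0.374) and 9.40 to 13.8 CPM in males (median 9.90), a log2 fold change of 3.98 (SE 0.70, adjusted p = 0.000349). Kidney also expresses Dnase1. Female control 19 held the most of both Dnase1 and Kap among females, and Kap was at 1.39 to 66.9 CPM in males. The part of kidney RNA in Dnase1 was not tested. Odf3l2, a gene of the outer dense fibre family, was at 1.72 to 8.98 CPM in females (median 4.39) and 27.3 to 50.5 CPM in males (median 37.6). Actr3b, a subunit of the actin-nucleating Arp2/3 complex, was at 9.62 to 20.8 CPM in females (median 13.8) and 61.2 to 96.5 CPM in males (median 74.3). Mchr1, a receptor for melanin-concentrating hormone, was at 2.24 to 6.98 CPM in females (median 3.85) and 15.3 to 30.1 CPM in males (median 21). None of these 3 overlapped between the sexes, and their log2 fold changes were 3.13, 2.44 and 2.35 (adjusted p = 9.05e-07, 3.66e-08 and 3.58e-08).

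Some feedback inhibitors of cytokine and growth hormone signalling were higher in males. Of 18 tested genes of the growth hormone and IGF axis, 5 were higher (3 without male control 21 or 22) and 1 was lower. The called share was 33.3%, against 8.77% of all autosomal genes tested. The list's median log2 fold change was -0.07. Cish, an inhibitor induced by Stat5, was at 3.92 to 12.7 CPM in females (median 7.78) and 20.2 to 71.4 CPM in males (median 55.9). The sexes did not overlap (log2 fold change 2.61, SE 0.34, adjusted p = 2.97e-06). Socs1 (log2 fold change 1.86, adjusted p = 0.00374) and Socs3 (1.34, adjusted p = 0.0206), related inhibitors of cytokine signalling, were also higher with overlapping groups. Socs3 lost its call without male control 21 or 22 (highest adjusted p = 0.0974), and with male controls 25 to 27 as the only males it was at -0.41 (adjusted p = 0.472). Socs2, another inhibitor in this family, was at 52.2 to 152 CPM in females and 75.5 to 148 CPM in males (log2 fold change 0.08, adjusted p = 0.886). The kinase Jak2 was higher at a log2 fold change of 0.28 (adjusted p = 0.0339). It lost its call in 7 of 14 fits with 1 library left out (adjusted p up to 0.0717). The receptor Igf1r was lower at -0.54 (adjusted p = 0.00957). The growth hormone receptor Ghr (-0.09, adjusted p = 0.647) and the growth factor Igf1 (0.41, adjusted p = 0.0661) did not pass, although Igf1 was called higher by DESeq2 (adjusted p = 0.0494).

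Promoter windows of the genes above were searched for the half-site bound by androgen and glucocorticoid receptors, AGAACA on either strand. RefSeq windows of the GRCm38.p6 build, 250 bases before to 50 after a gene's start, were used. Of 32851 windows, 6233 held it (19%). Windows of autosomal genes higher in males held it in 13.5% of cases, those of lower genes in 13% and those of all tested autosomal genes in 12.3%. The windows of Amd1, Amd2, Odc1, Smox, Slc30a2 and Cish held no half-site, and those of Dnase1 and Mchr1 held 1 each. The inverted repeat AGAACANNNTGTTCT, which joins that half-site and its reverse complement, was present in 3 of all 32851 windows (0.00913%). Among tested autosomal genes, a single gene had it, Sgk1, a kinase induced by glucocorticoids, which was higher in males (see its values among the glucocorticoid genes). An inverted repeat of the oestrogen receptor half-site, GGTCANNNTGACC, was in 23 windows (0.07%) and in none of the called genes. These letters describe the windows and are not evidence of binding, and regulatory sites farther from the start lie outside them. Sgk1 has several windows, and the inverted repeat is in only the printed one. The windows that follow, of Sgk1, Mchr1 and Amd1, show the inverted repeat, a single half-site and none, with capitals marking each half-site. They lie at chr10:21993640-21993939 (plus strand), chr15:81235249-81235548 (plus strand) and chr10:40302139-40302438 (minus strand).
Sgk1: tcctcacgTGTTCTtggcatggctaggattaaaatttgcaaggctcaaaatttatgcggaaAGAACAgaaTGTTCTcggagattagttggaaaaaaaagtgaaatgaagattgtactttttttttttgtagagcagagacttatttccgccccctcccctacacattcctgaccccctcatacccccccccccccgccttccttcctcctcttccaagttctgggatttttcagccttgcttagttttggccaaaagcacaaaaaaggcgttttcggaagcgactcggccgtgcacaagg
Mchr1: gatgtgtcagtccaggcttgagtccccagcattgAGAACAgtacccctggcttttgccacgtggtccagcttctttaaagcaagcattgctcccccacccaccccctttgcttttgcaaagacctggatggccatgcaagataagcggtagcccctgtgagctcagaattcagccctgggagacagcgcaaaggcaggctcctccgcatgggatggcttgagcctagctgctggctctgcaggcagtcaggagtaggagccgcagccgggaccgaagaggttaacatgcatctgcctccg
Amd1: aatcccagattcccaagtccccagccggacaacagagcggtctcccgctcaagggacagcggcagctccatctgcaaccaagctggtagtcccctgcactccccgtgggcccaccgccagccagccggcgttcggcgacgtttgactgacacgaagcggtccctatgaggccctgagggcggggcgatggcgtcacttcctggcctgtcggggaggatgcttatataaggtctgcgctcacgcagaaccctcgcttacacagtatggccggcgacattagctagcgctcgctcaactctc

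The largest falls in males included the actin Actc1, the transporter Slc1a2 and the phospholipase Pla2g5. Actc1, the cardiac actin also made in developing and slow muscle, was at 518 to 1051 CPM in females (median 682) and 151 to 246 CPM in males (median 220). All males were below all females (log2 fold change -1.73, SE 0.22, adjusted p = 2.20e-06). Slc1a2, a glutamate transporter, was at 4.40 to 23.4 CPM in females (median 10.2) and 0.632 to 4.02 CPM in males (median 1.38), a log2 fold change of -2.44 (SE 0.48, adjusted p = 0.00116). Pla2g5, a secreted phospholipase, was at 9.72 to 18 CPM in females (median 13.8) and 0 to 6.71 CPM in males (median 3.66), a log2 fold change of -1.82 (SE 0.45, adjusted p = 0.00892). Neu2, a sialidase found in the cytosol, was at 34.6 to 43.6 CPM in females (median 38.0) and 11.6 to 21.1 CPM in males (median 13.8), a log2 fold change of -1.32 (SE 0.13, adjusted p = 2.19e-08). For each of these the sexes were separate.

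Ak4, an adenylate kinase of mitochondria, was at 12 to 25.7 CPM in females (median 23.4) and 4.14 to 9.01 CPM in males (median 7.43), and Casr, the calcium-sensing receptor, at 6.18 to 15.7 CPM (median 6.88) and 1.41 to 5.22 CPM (median 2.73). Neither overlapped (log2 fold changes -1.55 and -1.49, adjusted p = 0.00125 and 0.0143). Stc2, a secreted glycoprotein, Gnmt, which consumes S-adenosylmethionine, and Acot1, an acyl-CoA thioesterase, were lower with overlapping groups. Their log2 fold changes were -1.48, -1.47 and -1.34 (adjusted p = 0.00538, 0.0333 and 0.0202). The Acot1 call rested on female control 21, at 34.4 CPM against 13.4 CPM or less in the other females: without it the log2 fold change was -0.84 (adjusted p = 0.108). Gnmt lost its call in 8 of 14 fits with 1 library left out (highest adjusted p = 0.0884), and with male controls 20 to 23 its adjusted p was 0.103. With male controls 25 to 27 as the only males, Casr was at -1.14 (adjusted p = 0.17). Acot1 has close paralogs, so its reads are uncertain.

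**Figure D2:**
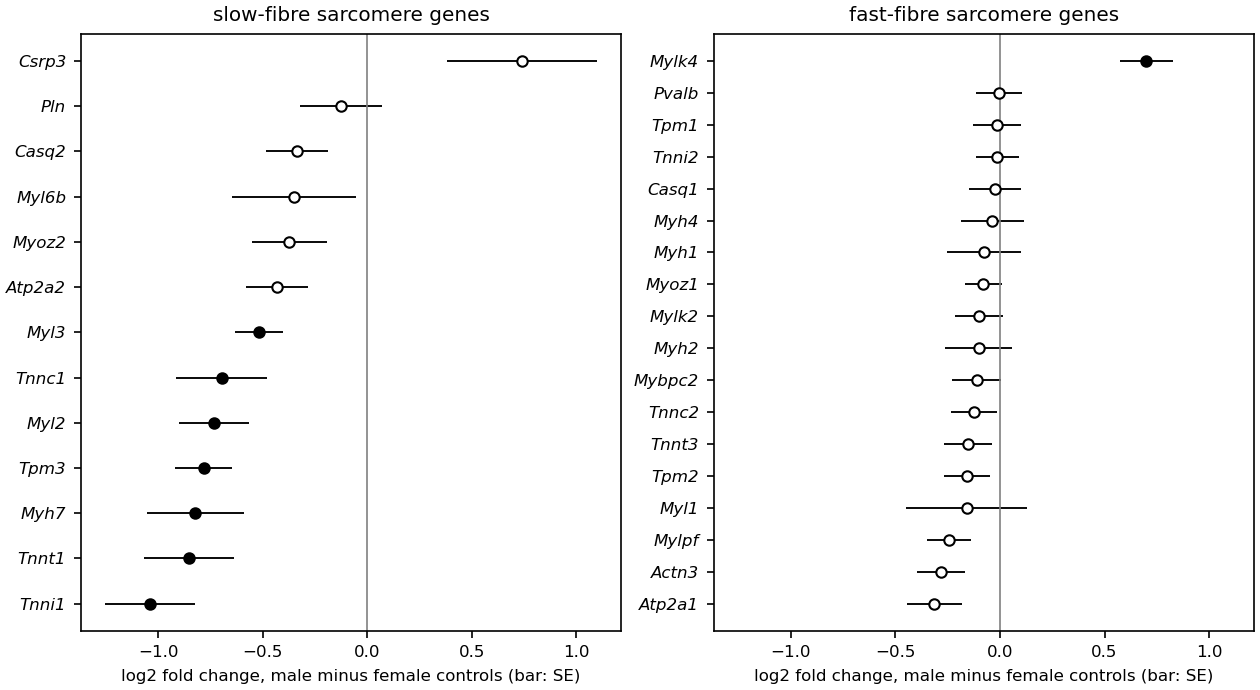
Log2 fold change of each tested gene of the slow-fibre (left) and fast-fibre (right) sarcomere lists, male minus female controls, with the standard error as a bar, filled points passing the test (edgeR adjusted p under 0.05). Of 13 slow-fibre genes 12 lie below 0 and 7 are filled. Fast-fibre genes lie near 0, and Mylk4 is the filled point.

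Slow-fibre contractile genes were often lower in males. Slow fibres carry their own isoforms of myosin, troponin and tropomyosin and are a minority in mouse gastrocnemius. Of 13 tested slow-fibre genes, 7 were lower, none was higher, and the median log2 fold change was -0.52. Calls made up 53.8% of this list, against 8.77% of all autosomal genes tested. Tnni1, slow troponin I, was at 100 to 184 CPM in females (median 124) and 52.6 to 76.4 CPM in males (median 63.8), with no overlap (log2 fold change -1.04, SE 0.21, adjusted p = 0.00186). Tpm3, slow tropomyosin, was at 229 to 324 CPM in females (median 266) and 142 to 169 CPM in males (median 154), again with no overlap (log2 fold change -0.78, SE 0.14, adjusted p = 0.000304). Tnnt1, slow troponin T, was at 331 to 452 CPM in females (median 378) and 170 to 329 CPM in males (median 197), just without overlap (log2 fold change -0.85, SE 0.21, adjusted p = 0.0104). Myl2, a slow myosin light chain, was at 245 to 361 CPM in females (median 296) and 158 to 208 CPM in males (median 174), also separate (log2 fold change -0.73, adjusted p = 0.00508). The slow myosin heavy chain Myh7 was at 92.1 to 151 CPM in females (median 124) and 51.8 to 120 CPM in males (median 65.3), with overlap (log2 fold change -0.82, SE 0.23, adjusted p = 0.0238). Myl3 (-0.52, adjusted p = 0.00357) and Tnnc1 (-0.70, adjusted p = 0.0401) were lower with overlapping groups. Male control 26 was the highest male in Tnnt1, Myh7 and Tnnc1, and without it 8 of the 13 were lower, while 5 were lower without male control 21 or 22. Of 14 fits with 1 library left out, 11 ended the call of Tnnc1 (highest adjusted p = 0.0878) and 2 that of Myh7 (highest adjusted p = 0.054). With male controls 25 to 27 as the only males, 3 of the 13 were lower, at a list median of -0.64, and with male controls 20 to 23 there were 8 lower and 1 higher, at -0.70.

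Of 18 tested fast-fibre genes, Mylk4 was higher and none was lower. That is 5.56% of the list, below the 8.77% called among all autosomal genes tested. The median log2 fold change was -0.10, and 17 values were below 0. Of the same genes 5 were lower with male controls 20 to 23 (list median -0.25), 3 with limma-voom, 2 without male control 26 and none with male controls 25 to 27 as the only males (list median 0.10). The fast myosin heavy chains did not pass, with Myh4 (type IIb) at -0.04 (adjusted p = 0.926), Myh1 (type IIx) at -0.08 (adjusted p = 0.855) and Myh2 (type IIa) at -0.10 (adjusted p = 0.765). Myh4 was at 10516 to 18926 CPM in females and 9728 to 19757 CPM in males. The males were split here too: male controls 20 to 23 lay at 9728 to 11170 CPM, 3 of them below every female, and male controls 25 to 27 at 15030 to 19757 CPM.

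A few genes linked to denervation and early muscle differentiation were lower. Of 14 tested, 3 were lower and 1 was higher, with a median log2 fold change of -0.16. The called share was 28.6%, against 8.77% of all autosomal genes tested. Myog, the transcription factor myogenin, was at 23.3 to 37.8 CPM in females (median 29.5) and 6.44 to 26.3 CPM in males (median 16.6), a log2 fold change of -0.86 (SE 0.18, adjusted p = 0.00186). Gadd45a, a growth arrest gene induced by denervation, was lower at -0.90 (adjusted p = 0.00616), and Chrna1, the acetylcholine receptor alpha subunit, at -0.52 (adjusted p = 0.0166), both without overlap. Chrna1 was at -0.43 (adjusted p = 0.123) with male controls 20 to 23. Runx1 was higher at 0.87 (adjusted p = 0.027), but with male controls 25 to 27 as the only males it was at -0.10 (adjusted p = 0.854). Its call was lost in 6 of 14 fits with 1 library left out (highest adjusted p = 0.0916). Of 14 neuromuscular junction genes, 2 were higher and Chrna1 was lower (list median -0.04, 21.4% called). Musk, the receptor kinase that clusters acetylcholine receptors, was at 7.58 to 14.4 CPM in females (median 8.98) and 16.4 to 24.9 CPM in males (median 23.3), with no overlap (log2 fold change 1.19, SE 0.17, adjusted p = 1.86e-05). Its adaptor Dok7 was higher at 0.44 (adjusted p = 0.0153), with overlap, and was at 0.18 (adjusted p = 0.427) with male controls 25 to 27 as the only males.

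A few genes of protein breakdown and cell-cycle arrest were lower in males. Of 20 tested atrophy, ubiquitin and autophagy genes, 5 were lower, none was higher, and the median log2 fold change was -0.20. That is 25% of the list, against 8.77% of all autosomal genes tested. Cdkn1a, the cyclin-dependent kinase inhibitor p21, was at 251 to 503 CPM in females (median 302) and 66.2 to 163 CPM in males (median 153), with no overlap (log2 fold change -1.36, SE 0.27, adjusted p = 0.00157). Foxo3, a transcription factor that drives atrophy genes, was at 36.0 to 56.1 CPM in females (median 38.5) and 16.7 to 32.1 CPM in males (median 26.3), also without overlap (log2 fold change -0.68, SE 0.11, adjusted p = 0.000138). Ctsl, the lysosomal protease cathepsin L, was separate too (log2 fold change -0.63, adjusted p = 0.000239). The muscle ubiquitin ligases Fbxo32 (-0.53, adjusted p = 0.229) and Trim63 (-0.32, adjusted p = 0.322) did not pass. Female control 21 stood apart in these genes, with Fbxo32 at 2975 CPM against 545 to 1009 CPM in the other females and Trim63 at 1243 CPM against 363 to 572 CPM. Without it, Fbxo32 and Trim63 were at -0.01 and 0.00, and the list had 4 lower, 1 higher and a median of -0.05, while Cdkn1a (-1.21, adjusted p = 0.00598), Foxo3 (-0.59, adjusted p = 0.000614) and Ctsl (-0.51, adjusted p = 0.000875) remained lower.

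Glucocorticoid-responsive genes did not move together. Of 17 tested, 3 were higher, 2 were lower, and the median log2 fold change was -0.03. Calls made up 29.4% of this list, against 8.77% of all autosomal genes tested. Sgk1, with a window printed above, was at 107 to 242 CPM in females (median 136) and 170 to 336 CPM in males (median 214), with overlap (log2 fold change 0.56, SE 0.15, adjusted p = 0.0189). Its call was lost in a fit of the 14 control libraries alone (adjusted p = 0.0544), with male controls 20 to 23 (0.29, adjusted p = 0.317) and without male control 26 (adjusted p = 0.0515). Hsd11b1, which regenerates active glucocorticoid, was higher at 0.69 (adjusted p = 0.035), and Klf15, a glucocorticoid-induced factor, was lower at -0.64 (adjusted p = 0.00171). Hsd11b1 lost its call in 7 of 14 fits with 1 library left out (highest adjusted p = 0.0925). With male controls 25 to 27 as the only males it was at -0.14 (adjusted p = 0.751). Female control 21 held the most Klf15, Fkbp5 and Ddit4 among females, and without it Klf15 was at -0.49 (adjusted p = 0.00588), the list median was 0.11, and 2 genes were higher and 2 lower. Fkbp5, Pdk4 and Ddit4, commonly used glucocorticoid readouts, had log2 fold changes of -0.16, -0.52 and -0.03 (adjusted p = 0.59, 0.528 and 0.964). The metallothionein Mt2 was higher at 1.64 (adjusted p = 0.00681), but with male controls 25 to 27 as the only males it was at -0.46 (adjusted p = 0.267). Of 9 oestrogen signalling genes, the coactivator Ncoa3 was higher (0.38, adjusted p = 0.00488) and none was lower (list median 0.13). That is 11.1% of the list, against 8.77% of all autosomal genes tested.

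**Figure D3:**
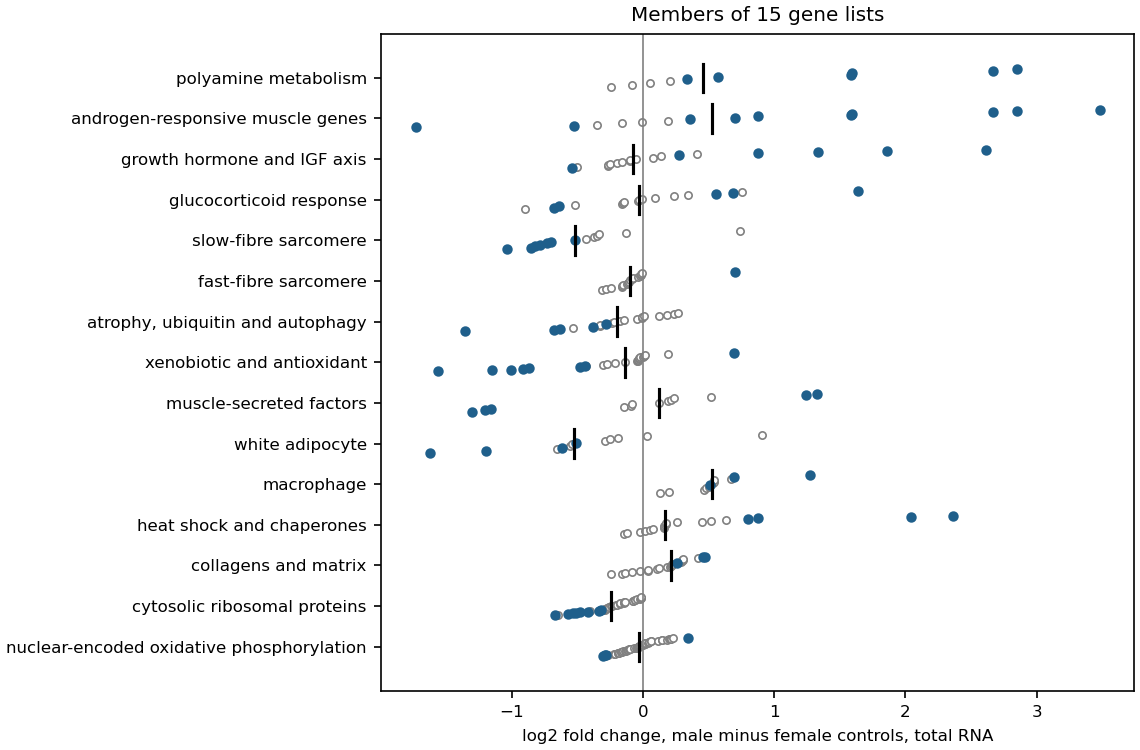
Log2 fold change (male minus female controls) of every tested autosomal member of 15 gene lists, 1 point per gene, blue where the edgeR adjusted p was under 0.05 and open otherwise, with a black line at the list's median. The polyamine median is 0.45 and the slow-fibre median -0.52, against 0.01 over all autosomal genes.

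Secreted factors of muscle differed in both directions. Of 13 genes tested in this list, 2 were higher and 3 were lower (list median 0.12). The 2 higher genes include Mss51, which encodes a mitochondrial protein. The called share was 38.5%, against 8.77% of all autosomal genes tested. Il15, a cytokine of muscle, was at 24.1 to 36.9 CPM in females (median 26.3) and 9.94 to 16.3 CPM in males (median 13), with no overlap (log2 fold change -1.15, SE 0.14, adjusted p = 1.08e-06). Bdnf, a neurotrophin, was at 14.7 to 22.2 CPM in females (median 17.6) and 4.82 to 10.1 CPM in males (median 7.46), also separate (log2 fold change -1.20, SE 0.19, adjusted p = 8.59e-05). Ostn, musclin, which binds the natriuretic peptide clearance receptor, was at 83.0 to 182 CPM in females (median 129) and 38.8 to 67.9 CPM in males (median 52.4), without overlap (log2 fold change -1.30, adjusted p = 0.022). Ostn was at -1.15 (adjusted p = 0.0814) with male controls 20 to 23. Nmb, the peptide neuromedin B, was at 6.73 to 17.6 CPM in females (median 9.30) and 17.9 to 32.7 CPM in males (median 24.9), just separate (log2 fold change 1.25, SE 0.18, adjusted p = 1.42e-05). Mss51, a mitochondrial protein gene of fast muscle placed in this list, was at 51.2 to 142 CPM in females (median 86.1) and 158 to 334 CPM in males (median 213), with no overlap (log2 fold change 1.32, adjusted p = 0.00247). Of 22 myostatin, activin and BMP genes, 2 were higher and none was lower (list median 0.04). That is 9.09% of the list, near the 8.77% called among all autosomal genes tested. Gdf11, a relative of myostatin, was at 15.9 to 27.2 CPM in females (median 22.7) and 34.2 to 70.4 CPM in males (median 46.7), separate as well (log2 fold change 1.19, adjusted p = 0.0153). With male controls 20 to 23, its adjusted p was 0.114. The imprinted RNA H19 was at 624 to 830 CPM in females (median 762) and 294 to 406 CPM in males (median 340), with no overlap (log2 fold change -1.09, SE 0.23, adjusted p = 0.00222).

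Several detoxifying enzymes were lower in males. Of 23 tested xenobiotic and antioxidant genes, 7 were lower and 1 was higher, with a median log2 fold change of -0.14. That is 34.8% of the list, against 8.77% of all autosomal genes tested. Ces1d, a carboxylesterase that also hydrolyses lipids, was at 46.8 to 79.0 CPM in females (median 61.9) and 16.4 to 24.9 CPM in males (median 20.9), with no overlap (log2 fold change -1.56, SE 0.20, adjusted p = 2.08e-06). Gstm2, a glutathione transferase, was at 76.0 to 99.1 CPM in females (median 79.4) and 38.5 to 45.4 CPM in males (median 41.1), also separate (log2 fold change -1.01, SE 0.11, adjusted p = 3.22e-07). Gpx3, a secreted glutathione peroxidase, was at 328 to 526 CPM in females (median 426) and 197 to 271 CPM in males (median 232), separate too (log2 fold change -0.87, SE 0.17, adjusted p = 0.000803). Gstm1, Gstp1 and Gstp2, further glutathione transferases, and Aox1, an aldehyde oxidase, were lower at -0.48, -0.91, -1.15 and -0.44 (adjusted p = 0.00651, 0.0229, 0.0118 and 0.0257). Gstp1 and Gstp2 are close copies whose reads can be exchanged. Hmox1, haem oxygenase, was higher at 0.70 (adjusted p = 0.0133), and was at 0.07 (adjusted p = 0.845) with male controls 25 to 27 as the only males. Mgst1, a membrane-bound glutathione transferase outside this list, went against the listed transferases. It was higher in males at 0.92 (adjusted p = 0.00201), with overlapping groups. Of 14 fits with 1 library left out, 5 ended the call of Aox1 (highest adjusted p = 0.0725) and 3 that of Gstp1 (highest adjusted p = 0.0656). Ces1d and Gpx3 are also strongly expressed in fat.

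Some markers of white fat were also lower in males. Of 12 tested, 4 were lower, none was higher, and the median log2 fold change was -0.53. Calls made up 33.3% of this list, against 8.77% of all autosomal genes tested. The summed level of the list was 3621 to 4494 CPM in females and 2771 to 3898 CPM in males, most of it from Car3, which fibres also express. Adrb3, the adrenergic receptor of adipocytes, was at 4.17 to 7.86 CPM in females (median 5.24) and 0.460 to 2.61 CPM in males (median 2.11), with no overlap (log2 fold change -1.62, SE 0.31, adjusted p = 0.000803). Retn (resistin) was lower at -1.19 (adjusted p = 0.00116), Cfd (adipsin) at -0.62 (adjusted p = 0.0191) and Car3 at -0.51 (adjusted p = 0.0304). Of 14 fits with 1 library left out, 2 ended the call of Cfd (highest adjusted p = 0.0679) and 7 that of Car3 (highest adjusted p = 0.0714). Adipoq (-0.29, adjusted p = 0.47) and Fabp4 (0.03, adjusted p = 0.936), members of the same list, did not pass. The part of fat in the lower Ces1d and Gpx3 was not tested.

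Lipid and sugar genes showed few calls, and leaving out 1 library left 1 to 3 lower genes of fatty acid uptake and storage (1 without female control 17 or 18 or male control 21 or 22) and 0 to 2 of glycolysis (0 without female control 17 or male control 26). It left 1 to 3 lower genes of oxidative phosphorylation (1 without female control 15, 16 or 18 or male control 25 or 26) and 1 to 3 of insulin signalling (1 without female control 15 or male control 21). Of 23 genes of fatty acid uptake and storage, 3 were lower and 1 was higher (list median -0.07). The lipid droplet coat gene Plin4 was at 199 to 352 CPM in females (median 221) and 139 to 178 CPM in males (median 155), with no overlap (log2 fold change -0.61, adjusted p = 0.000445). Of 20 fatty acid oxidation genes, Echs1 was lower (-0.32, adjusted p = 0.0174, or 0.488 with male controls 25 to 27 as the only males) and none was higher (list median -0.15). Of 13 glycogen genes, Stbd1, which tethers glycogen, and Ugp2, which makes UDP-glucose, were lower, at -0.81 (adjusted p = 2.99e-05) and -0.35 (adjusted p = 0.00654), both without overlap (list median -0.10). With male controls 20 to 23 the adjusted p of Ugp2 was 0.0513. Of 17 glycolysis genes, 2 were lower and none was higher (list median -0.02). Of 50 nuclear-encoded genes of oxidative phosphorylation, 3 were lower and 1 was higher (list median -0.03). Of 17 TCA cycle genes, Idh3b was lower (-0.39, adjusted p = 0.0459, list median -0.10). Its call was lost in 12 of 14 fits with 1 library left out (highest adjusted p = 0.117). In insulin signalling, 3 of 19 genes were lower and 1 was higher (list median -0.04). Grb10, an adaptor that restrains the insulin receptor, was at 98.4 to 132 CPM in females (median 108) and 61.3 to 78.8 CPM in males (median 71.8), with no overlap (log2 fold change -0.65, SE 0.07, adjusted p = 4.55e-07). The circadian repressor Bhlhe41 was higher (0.55, adjusted p = 0.00451), as 1 of 19 clock genes. The share of list genes called was 17.4% for fatty acid uptake and storage, 15.4% for glycogen, 21.1% for insulin signalling and 11.8% for glycolysis. It was 8% for oxidative phosphorylation, 5.88% for the TCA cycle, 5% for fatty acid oxidation and 5.26% for clock genes. Of all autosomal genes tested, 8.77% were called.

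Chemokine, heat shock and macrophage genes differed among the males: more of them were called with male controls 20 to 23 than with male controls 25 to 27. Ccl2, which recruits monocytes, was at 1.28 to 14.8 CPM in females and at 50.0, 144, 74.6 and 22.5 CPM in male controls 20, 21, 22 and 23, but at 7.15, 3.68 and 3.83 CPM in male controls 25, 26 and 27, or within the female range. Its log2 fold change was 2.75 (SE 0.61, adjusted p = 0.00347) with all males and -0.44 (adjusted p = 0.715) with male controls 25 to 27 as the only males. Ccl7, a related chemokine, was at 3.19 (adjusted p = 0.00374, or 0.0592 by limma-voom) and -0.61 (adjusted p = 0.702) in these fits. Hspa1b, an inducible Hsp70, was at 11.5 to 36.0 CPM in females and ranged from 10.6 CPM in male control 26 to 425 CPM in male control 20 (log2 fold change 2.36, SE 0.45, adjusted p = 0.000849). Its copy Hspa1a shares reads with it and was higher at 2.04 (adjusted p = 0.00125). With male controls 25 to 27 as the only males, the log2 fold changes were 1.17 (adjusted p = 0.0775) and 1.03 (adjusted p = 0.0659).

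Lists showed the same split. Of 12 macrophage markers tested, 3 were higher with all males (list median 0.52), 9 with male controls 20 to 23 and none with male controls 25 to 27 as the only males (list median -0.27). Their summed level was 143 to 281 CPM in females, 347 to 527 CPM in male controls 20 to 23 and 142 to 245 CPM in male controls 25 to 27, and no marker was at 0 in all libraries. Cd68, a lysosomal protein of macrophages, was higher at 1.27 (adjusted p = 0.0152) with all males and at -0.24 (adjusted p = 0.719) with male controls 25 to 27, and without male control 21 its adjusted p was 0.0607. Of 20 heat shock genes, 4, 10 and 1 were higher in these 3 settings, of 19 immediate-early genes 1, 8 and 0, and of 24 collagen and matrix genes 3, 9 and 0. Cytosolic ribosomal protein genes went the other way, with 8 of 35 lower with all males, 1 with male controls 20 to 23 and 21 with male controls 25 to 27. Over all autosomal genes, higher calls in these 3 settings were 591 of 12226, 688 of 12588 and 842 of 12765. Lower calls were 481, 378 and 728. Leaving out 1 library moved the list counts, to 0 to 6 higher macrophage markers (6 without male control 26). It left 0 to 4 higher collagen and matrix genes (0 without female control 21) and 4 to 10 lower ribosomal protein genes (10 without male control 21). All 35 ribosomal protein genes had a log2 fold change below 0 in the main comparison (list median -0.25). With the share of reads outside genes as a covariate, 8 macrophage markers, 4 heat shock genes, 2 immediate-early genes and 7 collagen and matrix genes were higher, and 9 ribosomal protein genes were lower. Whether another difference between these libraries has a part in these results was not tested. By contrast Amd1 and Cish were high in all 7 males, on either side of the split.

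**Figure D4:**
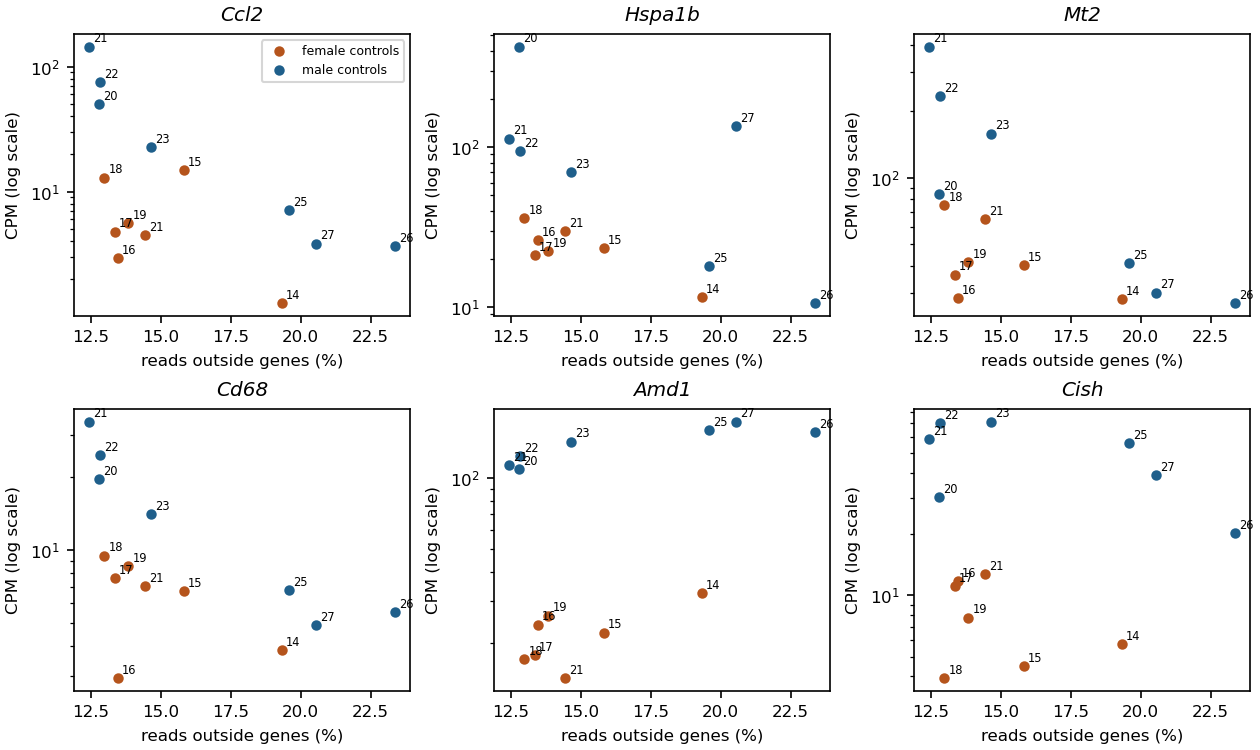
Level in CPM (log scale) of 6 genes against the share of reads outside genes (%) in each control library, numbered as in the labels, for 7 females and 7 males. Ccl2, Mt2 and Cd68 lie above all females in male controls 20 to 23. In male controls 25 to 27 they lie within the female range, except Mt2 in male control 26, at 27.1 CPM just below the lowest female (28.2 CPM). Hspa1b is high in male control 27 as well, and Amd1 and Cish are above all females in every male.

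Markers of several other cell types were not called with all males. None of the tested endothelial (12), smooth muscle and pericyte (10), tendon (9), Schwann (8), satellite cell (7), erythroid (6), neutrophil and mast cell (6), brown fat (6), kidney (4) or skin (3) markers passed the test in total RNA with all males. An unadjusted p under 0.05 was seen for 6 of these 71 genes (edgeR), and DESeq2 and limma-voom called 0 and 3 of them. Of all 12226 autosomal genes tested, 2765 had such a p, and DESeq2 and limma-voom called 1178 and 1545. With male controls 20 to 23, 2 markers were higher, where 1066 of 12588 autosomal genes were called. With male controls 25 to 27 as the only males, 2 markers were higher and 5 lower, where 1570 of 12765 autosomal genes were called. The summed endothelial level was 896 to 993 CPM in females and 876 to 1007 CPM in male controls 20 to 23. It was 1047 to 1104 CPM in male controls 25 to 27, above all females. The summed satellite cell level was 754 to 862 CPM in females and 758 to 804 CPM in male controls 25 to 27. In male controls 20 to 23 it was 879 to 1136 CPM, above all females. Of 12 fibroblast markers, Cxcl14 was higher (0.63, adjusted p = 0.0185, or 0.547 with male controls 25 to 27 as the only males). Lymphocyte markers, 13 with Ighm included, summed to 21.3 to 30.1 CPM in females and 37.5 to 50.6 CPM in males. Of these 13 markers 2 could be tested and 1 was called, and the B-cell marker Cd79a was at 0 in all 14 libraries. The called one, immunoglobulin heavy chain Ighm, a B-cell transcript, was at 8.98 to 18.3 CPM in females (median 15.6) and 20.3 to 40.4 CPM in males (median 30.7), with no overlap (log2 fold change 1.11, SE 0.22, adjusted p = 0.00114). Of 14 liver genes, haptoglobin (Hp), which muscle and fat also make, was higher at 1.22 (adjusted p = 0.000323, or 0.108 with male controls 25 to 27 as the only males). Calls made up 8.33% of the fibroblast and 7.14% of the liver list, against 8.77% of all autosomal genes tested. Albumin (Alb) was at 10.6 to 91.7 CPM in females and 2.80 to 46.8 CPM in males (log2 fold change -1.19, adjusted p = 0.284).

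The same sex comparison in other mice came from the libraries labelled HuR Knockout. Elavl1 was at 65.8 to 122 CPM in total RNA of controls and 51.4 to 97.6 CPM in these mice, and reads of this assay fall near the 3' end, which need not lie in the deleted part, so the label was not checked by them. In these mice 334 autosomal genes (2.73%) differed between the sexes, 221 higher (1.81%) and 113 lower (0.924%) in males. Of the 591 genes higher in male controls, 127 (21.5%, and 57.5% of the 221) were also called higher, 526 had the same sign, and none was called lower. Of the 481 genes lower in male controls, 60 (12.5%, and 53.1% of the 113) were also called lower, 403 had the same sign, and none was called higher. The knockout median was 0.23 for the 591 genes and -0.16 for the 481, against 0.56 and -0.47 in controls, where the genes were chosen. Amd1 (2.58, adjusted p = 9.43e-11), Slc15a5 (4.99, adjusted p = 1.25e-06), Cish (2.98, adjusted p = 6.75e-06) and Smox (1.72, adjusted p = 3.02e-06) were higher, and Actc1 (-1.66, adjusted p = 8.36e-06), Il15 (-1.19, adjusted p = 7.98e-07) and Grb10 (-0.64, adjusted p = 9.58e-07) were lower. Ccl2 (0.29, adjusted p = 0.884), Hspa1b (0.80, adjusted p = 0.432), Gpx3 (0.02, adjusted p = 0.974) and Mss51 (0.38, adjusted p = 0.549) did not pass there.

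A direct test of whether the sex difference differed between controls and these mice called no autosomal gene (edgeR), with 1181 at an unadjusted p under 0.05. DESeq2 called 21, the fit with no filter on low counts 4, the fit of all 56 libraries 1 and limma-voom none. A gene called in controls and not in the mice labelled HuR Knockout is therefore not shown to differ between them.

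Many of these genes also differed in RNA on the tagged ribosomes of control mice. Of 8715 autosomal genes tested there, 664 (7.62%) differed between the sexes, 376 higher (4.31%) and 288 lower (3.3%). Of the 591 genes higher in total RNA, 450 could be tested and 184 were called higher, and of the 481 lower genes, 413 could be tested and 111 were called lower. None was called in the opposite direction. These mice bear the same numbers as the mice of the total RNA libraries, so the comparison is not counted as an independent sample of mice. Amd1 (log2 fold change 3.15, adjusted p = 4.05e-15), Dnase1 (4.07, adjusted p = 1.14e-07), Musk (1.78, adjusted p = 2.62e-06) and Gdf11 (2.20, adjusted p = 1.14e-07) were higher in ribosomal RNA of males. Tnni1 (-0.77, adjusted p = 0.00145), Myh7 (-1.32, adjusted p = 0.00252), Cdkn1a (-1.27, adjusted p = 4.75e-05) and Gpx3 (-1.35, adjusted p = 6.48e-08) were lower. Sgk1 (-0.32, adjusted p = 0.338), Plin4 (-0.26, adjusted p = 0.315) and H19 (-0.29, adjusted p = 0.381) did not pass.

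**Figure D5:**
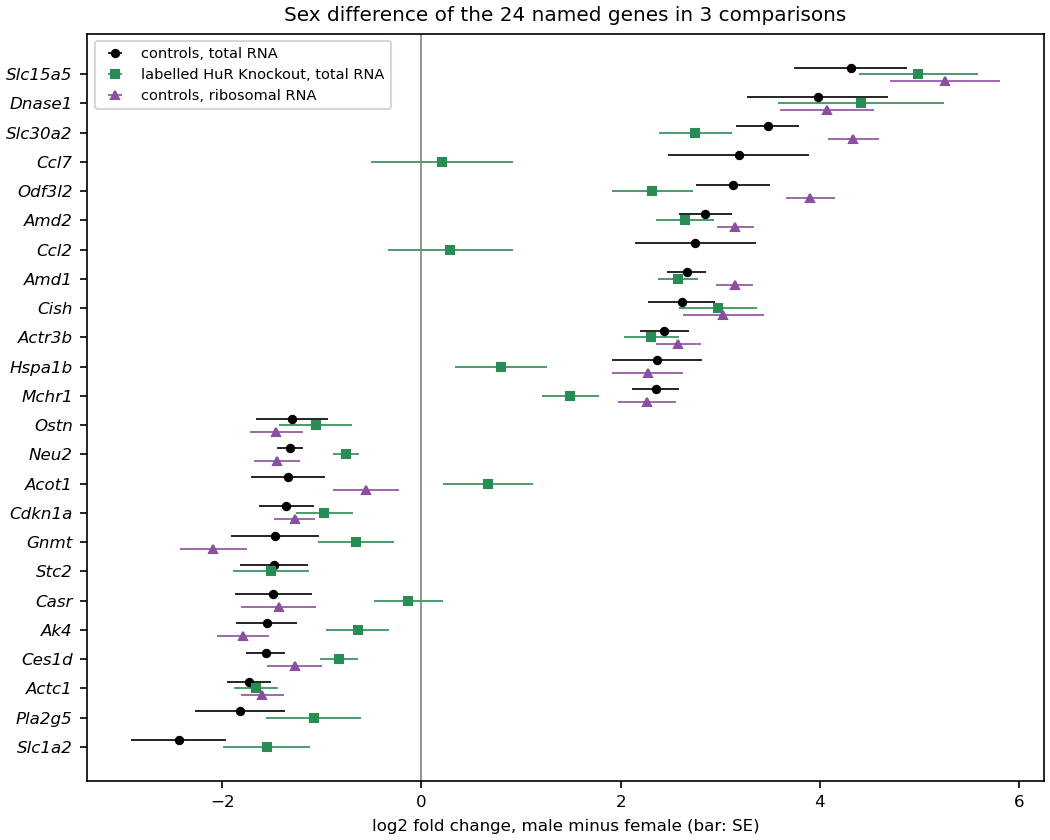
Log2 fold change (male minus female) with its standard error as a bar for the 24 genes of largest change in total RNA of controls, in total RNA of controls (circles, where the genes were chosen), in total RNA of mice labelled HuR Knockout (squares) and in ribosomal RNA of controls (triangles, absent where the gene was not tested). Amd1 lies at 2.66, 2.58 and 3.15 in the 3 comparisons, while Ccl2 lies at 2.75 and 0.29 in the first 2.

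The sex difference itself was tested between total and ribosomal RNA of controls, and it differed for 9 of 11254 autosomal genes (0.08%), with 8 lower (0.0711%) and 1 higher (0.00889%) in total minus ribosomal RNA. Cdk19, a kinase of the Mediator complex, was at 32.7 ± 2.56 CPM in females and 101 ± 18.7 CPM in males in total RNA (mean ± SD, n = 7 each) and at 22.1 ± 6.45 and 119 ± 14.7 CPM in ribosomal RNA. Its log2 fold change was 1.62 in total and 2.53 in ribosomal RNA, and the difference of these was -0.92 (adjusted p = 0.0273). Mgst1, a membrane-bound glutathione transferase, was at 71.2 ± 13.9 and 134 ± 31.6 CPM in total RNA and at 7.79 ± 4.8 and 49.9 ± 15.5 CPM in ribosomal RNA, a difference of -1.58 (adjusted p = 0.0249). With the shared number as a block, no gene passed this test.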

How the data were processed

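Gene-level counts came from a table of 57010 genes and 56 libraries deposited by the authors. Libraries were made with Lexogen Quant-Seq, which reads the 3' ends of transcripts, and sequenced with a 50 bp forward read, per the labels' protocols, from 500 ng of RNA per the series' design text. The submitters' processing notes name UMI-tools, STAR, HTSeq, DESeq2 1.40.1, R 4.3.0 and the GRCm39 build. Whether counting used strand is not given in the sources used here, so reads of overlapping antisense genes cannot be told apart. The 5 summary lines of the table (reads outside genes, for example) stayed out of library sizes. Chromosomes were assigned by gene ID from a GENCODE table on GRCm38, which matched 52081 IDs holding 97.6% of counts, and unmatched genes were left out of what is reported.

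The counts were tested as deposited with edgeR 4.0.16 in R 4.3.3: filterByExpr, TMM and the quasi-likelihood F-test, on all 28 total RNA libraries with 4 group means, and male minus female controls as the contrast. Other contrasts used the same fit, the 28 ribosomal libraries or the 28 control libraries. p-values were adjusted by Benjamini-Hochberg over all genes tested, and a gene was called at an adjusted p under 0.05. Standard errors are the log2 fold change divided by the square root of F. CPM values use TMM-scaled library sizes. Each library bears a number in the labels, read here as its mouse, and no pair of the 14 libraries was identical. Nothing in the labels gives litters or batches, so p-values measure the spread between these mice. The series' design text counts 7 male and 7 female mice and another label counts 14 of each, and the labels' 7 libraries per group were used. The procedure was run on simulated counts drawn independently for each library, with no split among the male controls. No result above rests on that run.

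Named genes were the 12 largest autosomal rises and 12 largest falls among called genes with a mean of at least 5 CPM over the 14 libraries and an ordinary symbol, plus up to 4 members of lowest p in each list. Further list members were named after their values were seen. Members and lists were chosen with earlier results of these data known. Lists are described by counts and medians and were not tested as sets. Alternatives were RLE scaling, no filter, DESeq2 1.42.0, limma-voom (limma 3.58.1) with sample weights, other sets of libraries, removal of X, Y and mitochondrial genes, reads outside genes as a covariate, replicate blocks, and each control library left out. Male controls 25 to 27 as the only males were added after seeing the data.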

Additional observations from a re-analysis of the deposited data

Results flagged for a closer look

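In 22 of 204 groups of 7 libraries screened, 1 library lay farther from the rest than Dixon's 95% limit allows. For normally spread values chance alone gives about 1 in 20 groups. The limit was applied to CPM without a log scale, and each flagged library was the highest of its group. That share therefore may not hold here. The groups are not independent, since many genes share their highest library.

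Female control 21 was the highest female, far from the next, in 10 genes. It held Fbxo32 at 2975 CPM (next female 1009), Trim63 at 1243 CPM (next 572), Cdkn1a at 503 CPM (next 338), Ctsl at 469 CPM (next 347), Klf15 at 153 CPM (next 98.5), Fkbp5 at 119 CPM (next 77.3), Ddit4 at 37.4 CPM (next 16.9), Plin4 at 352 CPM (next 256) and Acot1 at 34.4 CPM (next 13.4). Its Slc30a2, at 5.61 CPM against 2.25 CPM in the next female, was still below every male.

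Female control 14 was far above the other females in Actc1 (1051 CPM, next 698), Smox (158 CPM, next 132), Musk (14.4 CPM, next 10.4) and Stbd1 (98.5 CPM, next 73.6). Female control 19 was so in Dnase1, at 2.19 CPM against 0.462 CPM. Male control 26 was far above the other males in the slow-fibre genes Tnnt1 (329 CPM, next 209), Myh7 (120 CPM, next 74.0) and Tnnc1 (266 CPM, next 146) and in Car3 (3108 CPM, next 2092). Male control 20 held the most Hspa1b (425 CPM, next 135), Hspa1a (381 CPM, next 126) and the kidney gene Kap (66.9 CPM, next 9.01) among males.

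For 9 autosomal genes the sex difference itself differed between total and ribosomal RNA of controls (edgeR, adjusted p under 0.05), and none of them passed with the shared number as a block. The difference, total minus ribosomal on the log2 scale, was -2.70 for Dkk3, -0.79 for Serinc3, -1.34 for Gabbr1, -0.89 for Tmem234, -0.96 for the ribosomal protein gene Rps23, -1.58 for Mgst1, -1.16 for Tiam1, -0.92 for Cdk19 and 0.68 for Maea.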

How the results depend on the processing

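The 1072 autosomal calls became 719 to 1570 under the alternatives, and 856 to 1045 when 1 control library was left out, with 491 to 608 higher and 353 to 452 lower. The lower count of 481 fell to 267 with all 56 libraries in 1 fit and was 728 with male controls 25 to 27 as the only males, a setting chosen after seeing the data. Of 83 named genes that were called, 45 kept the call in each of 24 alternatives, 17 lost it in at least 1 fit without a single library, and 15 lost it only with male controls 25 to 27 as the only males. In that setting Ccl7 was at -0.61, Ccl2 at -0.44, Mt2 at -0.46, Runx1 at -0.10, Cd68 at -0.24, Socs3 at -0.41 and Hsd11b1 at -0.14, opposite to their direction with all males. The cause was not tested.

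In ribosomal RNA the 664 calls became 1808 with limma-voom and 1093 with 56 libraries. The 334 calls in knockouts became 211 with those 14 libraries alone. For the difference between controls and knockouts, the count of 0 became 4 with no filter, 21 with DESeq2 and 1 with 56 libraries. For total minus ribosomal RNA, the 9 calls became 22 with no filter, 61 with DESeq2, 145 with limma-voom and 17 with 56 libraries.

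No paired analysis was possible because male and female controls share only the number 21. A replicate block on shared numbers gave 81 calls in the knockouts and 0 for total minus ribosomal RNA. Deviations of same-numbered libraries did not go together throughout, with correlations of -0.619 to 0.423 over 5 knockout numbers and -0.392 to 0.265 over 14 control numbers, so the numbers were not shown to pair these libraries. Libraries of 2427655 to 5163820 counts limit what can be seen of genes at a few CPM.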
